A study of Mus musculus with 6 samples.

Results

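Repolarising potassium channel subunits are the proteins that end the cardiac action potential, and the RNAs of 9 of their genes were followed in mouse heart tissue. The genes were Kcnd2, Kcnd3, Kcnip2, Kcna4, Kcna5, Kcnq1, Kcnh2, Kcnj2 and Kcnv2. Every probe set annotated to exactly 1 of them was taken, which gave 18 of the 45037 probe sets of the array that were not controls (9 of 18193 genes with a probe set of their own). The hearts came from C57BL/6 mice labelled as overexpressing hAT1R, the human type 1 receptor of angiotensin II (3 arrays), and from C57BL/6 mice labelled normal, called non-transgenic here (3 arrays). Animals were matched for age and sex according to the series design, but the sources used here name no age, no treatment, no promoter of the transgene and no number of founder lines. Values were log2 signals, 1 per probe set and array.

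Potassium leaving the cell through these channels brings the membrane back to rest. In mouse ventricle the fast transient outward current is carried by the alpha subunits Kv4.2 (Kcnd2) and Kv4.3 (Kcnd3) together with the accessory calcium-binding protein KChIP2 (Kcnip2). Kcna4 encodes the channel of the slow transient outward current, Kcna5 that of a delayed rectifier, Kcnq1 and Kcnh2 those of the slow and rapid delayed rectifiers, and Kcnj2 an inward rectifier that sets the resting potential. Kcnv2 encodes a subunit that forms no channel alone and alters the channels it joins. Lower transient outward current is a known feature of hypertrophied hearts in rodents.

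The sequences just before the annotated starts of 4 of these genes are given as context for the genes the results turn on: Kcnd2 and Kcnh2, which had the largest differences among the brighter genes, and Kcnd3 and Kcnip2, the partners of Kcnd2. RefSeq windows on build GRCm38.p6 were found for 7 of the 9 genes, those other than Kcnq1 and Kcnv2. Each stretch holds the 250 bases before the start, written 5′ to 3′ on the gene's strand, and capitals mark the GC box GGGCGG on either strand.
Kcnd2, chr6:21215096-21215345, plus strand: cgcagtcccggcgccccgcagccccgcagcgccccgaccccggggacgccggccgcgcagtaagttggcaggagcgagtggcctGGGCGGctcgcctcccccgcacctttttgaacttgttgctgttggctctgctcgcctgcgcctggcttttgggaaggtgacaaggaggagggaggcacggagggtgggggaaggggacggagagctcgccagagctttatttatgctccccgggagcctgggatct
Kcnh2, chr5:24329592-24329841, minus strand: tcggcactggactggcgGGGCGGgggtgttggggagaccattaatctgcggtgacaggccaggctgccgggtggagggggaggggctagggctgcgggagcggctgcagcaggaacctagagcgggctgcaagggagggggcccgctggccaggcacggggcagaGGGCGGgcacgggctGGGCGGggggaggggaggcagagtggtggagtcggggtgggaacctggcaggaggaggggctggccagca
Kcnd3, chr3:105451640-105451889, plus strand: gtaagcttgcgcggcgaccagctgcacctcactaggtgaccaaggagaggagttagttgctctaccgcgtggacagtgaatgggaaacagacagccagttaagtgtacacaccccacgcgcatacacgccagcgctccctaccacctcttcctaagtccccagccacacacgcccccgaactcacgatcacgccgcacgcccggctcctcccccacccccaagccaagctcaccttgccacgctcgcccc
Kcnip2, chr19:45816064-45816313, minus strand: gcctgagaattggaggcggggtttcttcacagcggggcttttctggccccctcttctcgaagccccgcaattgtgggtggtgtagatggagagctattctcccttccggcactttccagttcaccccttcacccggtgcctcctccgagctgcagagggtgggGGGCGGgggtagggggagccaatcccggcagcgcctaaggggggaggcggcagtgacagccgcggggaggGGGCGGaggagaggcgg
The Kcnh2 window belongs to a start 22093 bases inside the outermost annotated end of the gene, and that of Kcnip2 to a start 359 bases inside. The GC box occurred 1 time before Kcnd2, 3 times before Kcnh2, 0 times before Kcnd3 and 2 times before Kcnip2, and 32.7% of the 32851 mouse windows of this length hold it. GC content was 68.8% for Kcnd2, 73.6% for Kcnh2, 62.8% for Kcnd3 and 66.8% for Kcnip2. The other motifs searched on both strands were TATAAA, the GATA motif AGATAA, the NFAT motif GGAAAA and the MEF2 motif. They are in 12.4%, 9.99%, 20.4% and 3.20% of all windows, and none had a match in these 4 stretches. These motif searches describe letters in a window and do not show a bound site.

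Some facts of the arrays bear on every value. On all 6 arrays the word typed into the chip lot field of the instrument's record names the opposite group: the word "transgene" stands in the 3 non-transgenic records and "control" in the other 3. The groups here follow the sample labels, and taking the typed words would turn the sign of every difference. Fluidics station 2 washed all 3 labelled transgenic arrays plus non-transgenic array 1, while non-transgenic arrays 2 and 3 went through station 3. All 3 labelled transgenic arrays were scanned before any non-transgenic one, so scan order cannot be told apart from group. Xist was high on labelled transgenic arrays 1 and 3 and on non-transgenic array 2 (log2 9.48, 9.48 and 9.69), and between 2.49 and 3.01 on the remaining arrays, so both groups held both sexes but in unequal numbers, with Xist high on 2 of 3 labelled transgenic and 1 of 3 non-transgenic arrays, unlike the matching that the design states. The labels do not say that arrays came from separate animals, so the spread behind the p-values may be partly technical, and 3 arrays a group limit the precision.

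A probe set was kept for testing when its mean over the 6 arrays exceeded the median of all probe sets, log2 3.29. Of the 18 potassium channel probe sets 14 were kept, at least 1 for each of the 9 genes. The 4 below the filter, marked near background and not tested, were single probe sets of Kcnd2 (1447764_at), Kcnd3 (1426070_a_at), Kcnip2 (1421783_a_at) and Kcna4 (1422255_at). Their array values lay between 2.39 and 2.64 and their changes between 0.010 and 0.050. A further 5 kept probe sets were dim, with means under log2 5: 1442555_at and 1447513_at of Kcnd3, and the only kept probe sets of Kcna4, Kcnj2 and Kcnv2. Well-measured signal therefore covered 9 probe sets of 6 genes. All changes below are log2 differences, labelled transgenic minus non-transgenic, with the standard error of limma's moderated fit over 22518 probe sets and Benjamini-Hochberg adjusted p-values over the same table (2-sided, threshold 0.05).

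Kcnd2 had the largest difference among the 9 genes, each taken by its brightest probe set. Its brightest probe set, 1422835_at, read 7.10, 7.33 and 7.41 in the labelled transgenic hearts, against 8.05, 8.10 and 8.18 in the non-transgenic hearts. Every labelled transgenic value lay below every non-transgenic one, and the spread within either group was smaller than the gap between them. The means were 7.28 ± 0.16 in labelled transgenic hearts and 8.11 ± 0.07 in non-transgenic hearts (SD, n = 3 each), a 1.78-fold lower signal. The change was -0.83 ± 0.10 (SE), with a 95% interval from -1.07 to -0.58 and limma adjusted p = 0.0588, so it did not pass the threshold over the whole table. It ranked 56 of 22518 by p-value. The adjusted p was 0.0458 with 1 probe set tested per gene, 0.0358 with only probe sets above log2 5 tested and 0.0435 with a variance trend, and over all alternatives it lay between 0.0358 and 0.179.

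The other measured Kcnd2 probe sets gave the same sign with more spread. 1450773_at read 6.72, 6.49 and 6.40 in labelled transgenic hearts, against 7.57, 6.91 and 7.02 in non-transgenic hearts, a change of -0.63 ± 0.19 (limma adjusted p = 0.203). 1422834_at read 5.92, 6.10 and 5.41 in labelled transgenic hearts, against 7.33, 6.41 and 6.51 in non-transgenic hearts, a change of -0.94 ± 0.29 (limma adjusted p = 0.212). Neither pair of groups overlapped. In both, non-transgenic array 1 stood well above the other non-transgenic arrays, and without it the changes were -0.43 and -0.65. With the station as a block, a fit in which that array is the only non-transgenic one beside the labelled transgenic arrays, they were -1.04 and -1.52. The brightest Kcnd2 probe set did not share this dependence, with -0.86 without that array and -0.77 with the station as a block.

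Kcnd3, the other pore subunit of the fast transient outward current, did not pass on any of its probe sets. Its brightest probe set, 1435720_at, read 7.15, 6.70 and 6.85 in labelled transgenic hearts, against 7.47, 7.18 and 6.94 in non-transgenic hearts. The groups overlapped, since the highest labelled transgenic value exceeded the lowest non-transgenic one. The change was -0.30 ± 0.17, with an interval from -0.71 to 0.12 (limma adjusted p = 0.448). It was -0.16 without non-transgenic array 1 and -0.57 with the station as a block. The dim probe set 1442555_at read 3.37, 4.33 and 3.85 in labelled transgenic hearts, against 4.10, 4.20 and 4.64 in non-transgenic hearts (change -0.46 ± 0.27, limma adjusted p = 0.451), again with overlap. Another, 1447513_at, was flat between 3.63 and 3.70 on all 6 arrays. The mean of the 3 kept Kcnd3 probe sets, mostly of dim ones, was 4.72, 4.89 and 4.78 in labelled transgenic hearts, against 5.08, 5.03 and 5.08 in non-transgenic hearts. Those means did not overlap, and their change of -0.27 ± 0.07 did not pass either (limma adjusted p = 0.129, unadjusted 0.0082).

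Kcnip2, whose protein KChIP2 brings Kv4 channels to the membrane, was measured by 2 bright probe sets. 1436275_at read 10.63, 10.51 and 10.77 in labelled transgenic hearts, against 11.11, 10.74 and 10.83 in non-transgenic hearts (change -0.26 ± 0.12, interval from -0.55 to 0.04, limma adjusted p = 0.367). 1425870_a_at read 9.65, 9.54 and 9.71 in labelled transgenic hearts, against 9.88, 9.76 and 9.64 in non-transgenic hearts (change -0.13 ± 0.09, limma adjusted p = 0.549). The groups overlapped in both, and non-transgenic array 1 was again the highest. Without that array the changes were -0.15 and -0.064, and with the station as a block they were -0.47 and -0.25.

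Kcna4, the slow transient outward subunit, could not be followed here. Its kept probe set, 1438613_at, stayed between 3.79 and 3.83 on all arrays (change -0.0035 ± 0.060, limma adjusted p = 0.985), and at so dim a signal this does not show that the gene was unchanged.

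**Figure D1:**
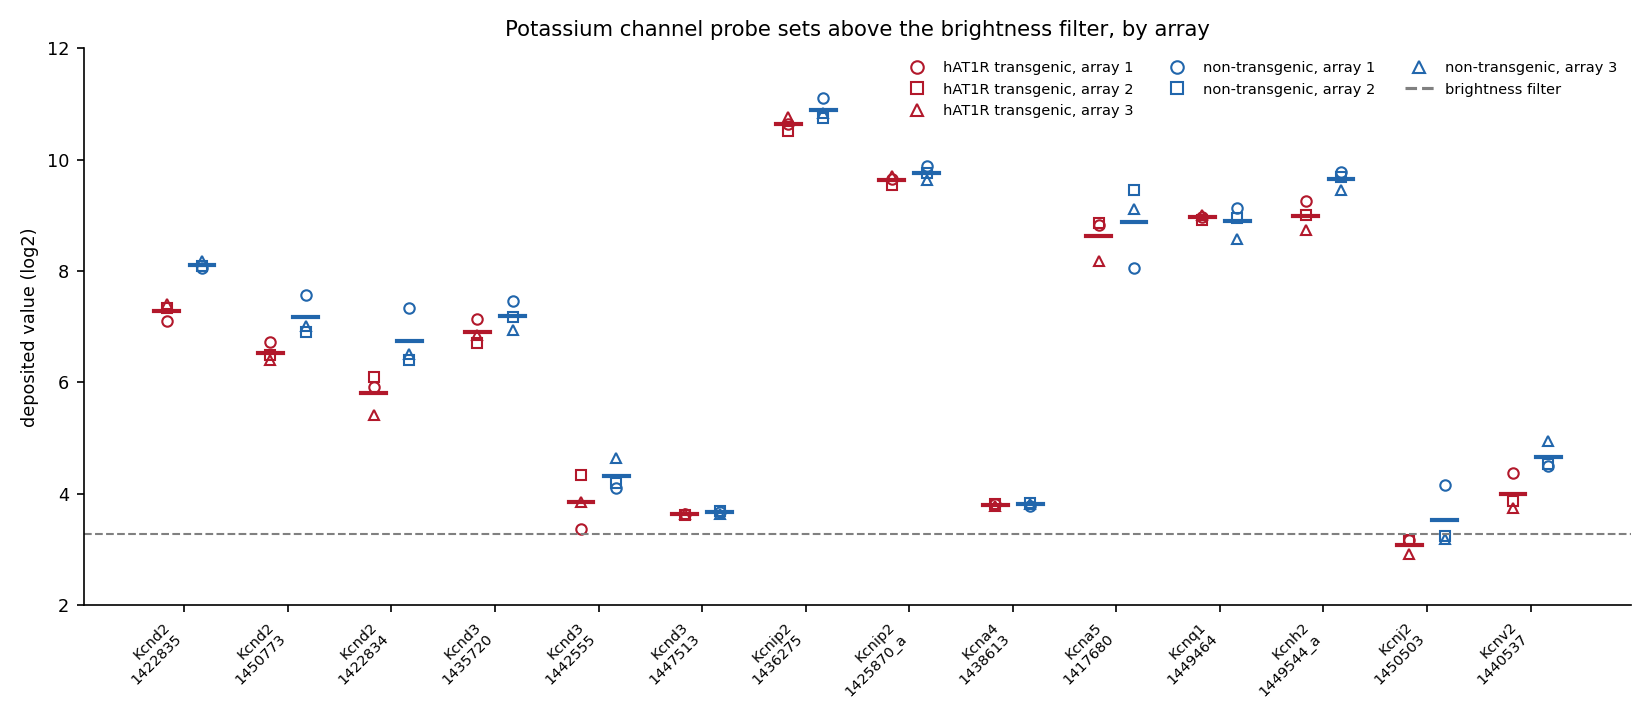
Deposited log2 values of the 14 potassium channel probe sets kept by the brightness filter, for each of the 3 labelled transgenic arrays (red, left) and the 3 non-transgenic arrays (blue, right). Bars are group means, marker shapes are array numbers and the dashed line is the brightness filter at log2 3.29. The groups do not overlap, with the labelled transgenic one lower, in all 3 Kcnd2 probe sets and in those of Kcnh2 and Kcnv2. The same holds for 9.78% of all 22518 kept probe sets. For Kcnj2 the groups nearly touch, at 3.18 (highest labelled transgenic value) and 3.19 (lowest non-transgenic value), both under the filter. Only non-transgenic array 1 lies above the filter there.

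The difference in change between Kcnd2 and the other transient outward genes was examined within arrays, as the log2 value of the brightest Kcnd2 probe set minus that of the other gene, for 3 pairs. Kcnd2 minus Kcnd3 averaged 0.38 ± 0.37 on labelled transgenic arrays and 0.91 ± 0.33 on non-transgenic arrays (SD, n = 3 each), a difference of -0.53 (2-sided exact permutation p = 0.2, adjusted over the 3 pairs 0.2). For Kcnd2 minus Kcnip2 the means were -3.36 ± 0.18 on labelled transgenic arrays and -2.78 ± 0.24 on non-transgenic arrays, a difference of -0.57 without overlap (exact permutation p = 0.1, adjusted 0.15). For Kcnd2 minus Kcna4 the difference was -0.82 (exact permutation p = 0.1, adjusted 0.15), with Kcna4 dim and flat as above. An exact test of 3 against 3 arrays cannot go below 0.1, so none of these could pass. All 3 pairs hold Kcnd2, the channel gene with the largest difference, so negative values were likely from that choice. The Kcna4 value is close to the Kcnd2 change alone.

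Among the delayed rectifier genes, Kcnh2 was the one whose groups did not overlap. Kcnh2, the ERG channel of the rapid delayed rectifier, read 9.25, 9.01 and 8.73 in labelled transgenic hearts, against 9.79, 9.69 and 9.46 in non-transgenic hearts. Each labelled transgenic array lay below the lowest non-transgenic one. The means were 9.00 ± 0.26 in labelled transgenic hearts and 9.64 ± 0.17 in non-transgenic hearts (SD, n = 3 each), a change of -0.65 ± 0.16 or a 1.57-fold lower signal, with an interval from -1.03 to -0.27 and limma adjusted p = 0.144. It did not pass under any alternative, with a change between -0.79 and -0.52 and an adjusted p from 0.0999 to 0.323.

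Kcna5 and Kcnq1 gave no resolved difference. Kcna5, the Kv1.5 channel of an ultrarapid current, had the largest standard error of the 14 probe sets and read 8.83, 8.86 and 8.19 in labelled transgenic hearts, against 8.05, 9.45 and 9.12 in non-transgenic hearts. Non-transgenic array 1 gave the lowest value of all and the other non-transgenic arrays the highest, so the groups overlapped widely. Its change was -0.25 ± 0.39, with an interval from -1.19 to 0.69 (limma adjusted p = 0.796), and it turned to 0.57 with the station as a block and to 0.038 without non-transgenic array 2. Without non-transgenic array 1 it was -0.66. Kcnq1, the pore subunit of the slow delayed rectifier, read 8.97, 8.91 and 9.01 in labelled transgenic hearts, against 9.14, 8.96 and 8.57 in non-transgenic hearts. Its change of 0.075 ± 0.15, with an interval from -0.28 to 0.44 (limma adjusted p = 0.848), turned to -0.18 with the station as a block and to -0.083 without non-transgenic array 3.

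The remaining genes were dim. Kcnj2, the Kir2.1 inward rectifier, read 3.17, 3.18 and 2.91 in labelled transgenic hearts, against 4.16, 3.24 and 3.19 in non-transgenic hearts. Only 1 of the 6 values, that of non-transgenic array 1, lay above the brightness filter, and the probe set was kept through it. The groups did not overlap, but the change of -0.44 ± 0.27 (limma adjusted p = 0.477) was -0.13 without that array and -1.08 with the station as a block. Kcnv2, the silent modulatory subunit, read 4.38, 3.87 and 3.75 in labelled transgenic hearts, against 4.51, 4.54 and 4.95 in non-transgenic hearts, with every labelled transgenic value below every non-transgenic one. Its change was -0.67 ± 0.20, with an interval from -1.16 to -0.17 and limma adjusted p = 0.202 (between 0.117 and 0.487 under the alternatives).

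**Figure D2:**
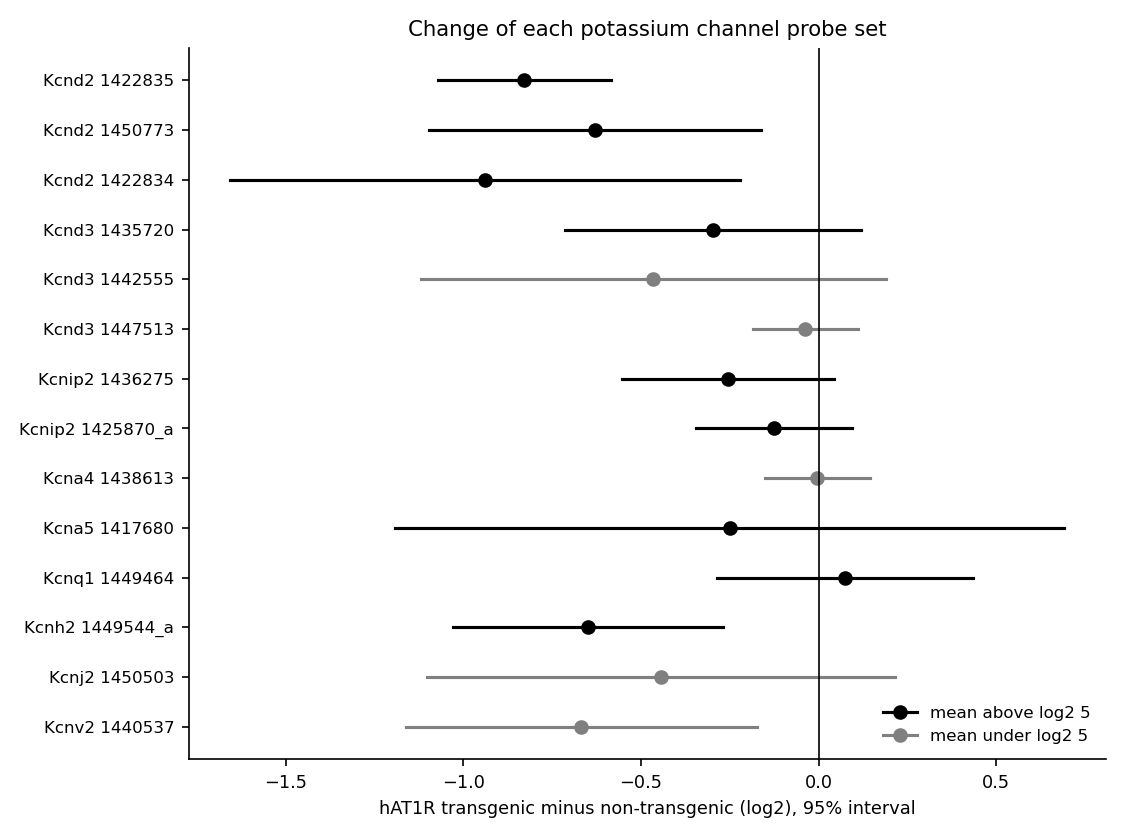
Change of each of the 14 kept probe sets, labelled transgenic minus non-transgenic on the log2 scale, with 95% intervals from limma. Black marks means above log2 5 and grey means under it. The intervals of the 3 Kcnd2 probe sets, of Kcnh2 and of Kcnv2 lie below 0, and those of the other 9 probe sets include 0.

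Across the set, 0 of the 14 kept probe sets passed in limma, against 0.218% of the whole table in either direction and 0.0400% lower in the labelled transgenic group. At an unadjusted p under 0.05 there were 5, all lower (3 of Kcnd2 and those of Kcnh2 and Kcnv2), where 6.98% of the table was lower at that level. Without labelled transgenic array 3 only 2 were left, the brightest of Kcnd2 and that of Kcnh2. No count is given with the station as a block, since the group difference in that fit rests on non-transgenic array 1 alone. The Kcnj2 probe set passed the filter through a non-transgenic array alone and is left out of the counts that follow, which cover 13 probe sets of 8 genes. Groups did not overlap, with the labelled transgenic one lower, in 5 of the 13, against 9.78% of the table. Of the 13 changes 12 were negative, or 11 with each array centred on its median, where Kcna4 turned to 0.0010, against 47.5% of the table. The highest of the 6 values came from a non-transgenic array in 13 of 13, against 52.0% of the table. That array was non-transgenic array 1 in 7 of them. With 1 probe set per gene, 7 of 8 changes were negative with a median of -0.28, where the median over 11016 genes was 0.0099. The genes were chosen with earlier results of these data known and several probe sets share a gene, so these counts describe the set.

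Markers of other cells were read beside these values, since in whole tissue fewer cells of a type and less RNA per cell cannot be told apart. Cardiomyocyte markers were near the top of the scale, and 6 of 10 were lower in the labelled transgenic group. Their summed linear signal ran from 360042 to 366014 on labelled transgenic arrays, against 367538 to 374771 on non-transgenic arrays, without overlap. The median change of these markers was only -0.0635, and 4 were higher. The brightest, Myh6, was nearly equal (16.007 in labelled transgenic and 15.995 in non-transgenic hearts). Fibroblast markers were higher in 9 of 9, with sums from 16730.0 to 21098 on labelled transgenic arrays, against 12672 to 14413 on non-transgenic arrays. Of all 11016 kept genes 5768 had a positive change. Fap was nearly equal (5.84 in labelled transgenic and 5.83 in non-transgenic hearts). The largest part of the fibroblast sum was Dcn (13.39 in labelled transgenic and 13.02 in non-transgenic hearts). Macrophage markers were higher in 7 of 7 kept of 8 listed, with sums from 5980.4 to 7019.4 on labelled transgenic arrays, against 4402.7 to 4915.0 on non-transgenic arrays. Of 8 atrial markers 5 were kept, 2 higher and 3 lower, and their summed signal was 22577 to 26888 on labelled transgenic arrays, against 5083.3 to 7588.2 on non-transgenic arrays. Nearly all of it was Nppa, the natriuretic peptide gene that stressed ventricles also express. The other 4 kept markers summed to 442.1 to 671.6 on labelled transgenic arrays, against 792.1 to 962.2 on non-transgenic arrays, the opposite direction. Most of that sum was Kcnj3, a channel gene given below (8.38 in labelled transgenic and 9.20 in non-transgenic hearts). Tbx5 was also lower (6.54 in labelled transgenic and 7.22 in non-transgenic hearts). Myl4 (4.72 in labelled transgenic, 4.84 in non-transgenic) and Nr2f2 (6.30 in labelled transgenic, 6.23 in non-transgenic) differed little. The atrial genes Myl7 and Sln were near background in both groups (Myl7 at 2.35 in labelled transgenic and 2.33 in non-transgenic hearts, Sln at 2.51 in labelled transgenic and 2.49 in non-transgenic hearts). Neuronal and Schwann cell markers overlapped between groups, with sums from 154.6 to 176.5 on labelled transgenic arrays, against 137.3 to 177.5 on non-transgenic arrays. For the actin control, the 3′ probe set exceeded the 5′ one by 0.80 to 0.94 (log2) on labelled transgenic arrays and by 0.97 to 1.05 on non-transgenic arrays. For the Gapdh control the excess was 0.11 to 0.12 on labelled transgenic arrays and 0.11 to 0.16 on non-transgenic arrays, with overlap. The part of cell composition, RNA quality and station in the channel differences was not tested beyond the fits given. With the Xist level as a term the brightest Kcnd2 probe set was at -0.81 and Kcnh2 at -0.65.

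The wider potassium channel genes held few measured members, and limma called 0 of them. Over all 11016 genes, 7.76% were lower and 10.4% higher at an unadjusted p under 0.05, and the counts at that level below are read against these shares. Of 24 annotated voltage-gated pore or modulatory subunits outside the 9, 6 were kept, 18 were near background and 0 had an unadjusted p under 0.05 (median change -0.047). The smallest p-values belonged to Kcnc4, a Kv3 channel, at 0.45 ± 0.22 (limma adjusted p = 0.384), and to Kcna7, a Kv1 channel of muscle, at -0.075 ± 0.081. Of 13 accessory subunit genes 2 were kept, Kcne4, a single-span beta subunit, at -0.24 ± 0.16, and Kcnab3, a cytosolic beta subunit, at 0.030 ± 0.071, which turned to -0.017 without non-transgenic array 1. Of 4 pacemaker genes listed 2 were annotated, and Hcn2 alone was kept, at 0.16 ± 0.11. Kcnc4, Kcne4, Kcnab3 and Hcn2 were dim, with means under log2 5.

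Inward rectifier and KATP channel genes had 8 of 16 members kept, 6 of them with a negative change (median -0.10) and 2 at an unadjusted p under 0.05, both lower. Kcnj3, a subunit of the acetylcholine-gated channel, read 8.83, 8.28 and 8.04 in labelled transgenic hearts, against 9.52, 9.07 and 9.00 in non-transgenic hearts. The groups did not overlap, and the change was -0.82 ± 0.24 (limma adjusted p = 0.19), with its other kept probe sets at -0.94 and -0.86. Kcnj3 also served as an atrial marker above. Abcc9, the SUR2 regulatory subunit of the KATP channel, read 12.21, 12.07 and 12.24 in labelled transgenic hearts, against 12.57, 12.57 and 12.44 in non-transgenic hearts, also without overlap. Its change was -0.36 ± 0.08 (limma adjusted p = 0.13), with the other probe sets at -0.35 and -0.31. Of 7 kept tandem-pore and calcium-activated channel genes 1 had an unadjusted p under 0.05. Kcnn2, the SK2 channel, was at -0.42 ± 0.12 (limma adjusted p = 0.184), and Kcnt2, a sodium-activated channel, at 0.36 ± 0.18. The Kcnt2 signal was dim, at 4.28 in labelled transgenic and 3.92 in non-transgenic hearts.

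Genes known to act on these channels were read the same way. Of 21 annotated transcriptional regulators, all kept, limma called 0, and 5 were lower and 2 higher at an unadjusted p under 0.05 (median -0.041). Ppargc1a, a coactivator of mitochondrial genes, had the smallest p, at -0.71 ± 0.14 (limma adjusted p = 0.107). Smyd1, a muscle methyltransferase, was at -0.37 ± 0.09 (limma adjusted p = 0.134). Chosen after their values were seen, Irx5, a homeodomain repressor of Kcnd2 in mouse ventricle, was at -0.25 ± 0.23 and its relative Irx3 at -0.58 ± 0.21, and Klf15, an activator of Kcnip2 in mouse heart, at -0.33 ± 0.18, none passing (limma adjusted p = 0.634, 0.267 and 0.41). Of 21 kept trafficking and anchoring partners limma called 0, with 2 higher at an unadjusted p under 0.05, a share near that of all genes. Sntb1, a syntrophin scaffold, read 5.06, 5.74 and 5.67 in labelled transgenic hearts, against 4.20, 4.51 and 4.50 in non-transgenic hearts. With a mean under log2 5 it was dim. Its change was 1.09 ± 0.20 (limma adjusted p = 0.0893, 0.0438 without labelled transgenic array 1, and up to 0.264 over the alternatives), while its other probe sets ran from 0.048 to 1.20. Kif5b, a kinesin motor, was at 0.41 ± 0.09 (limma adjusted p = 0.116), with other probe sets from 0.40 to 0.78.

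**Figure D3:**
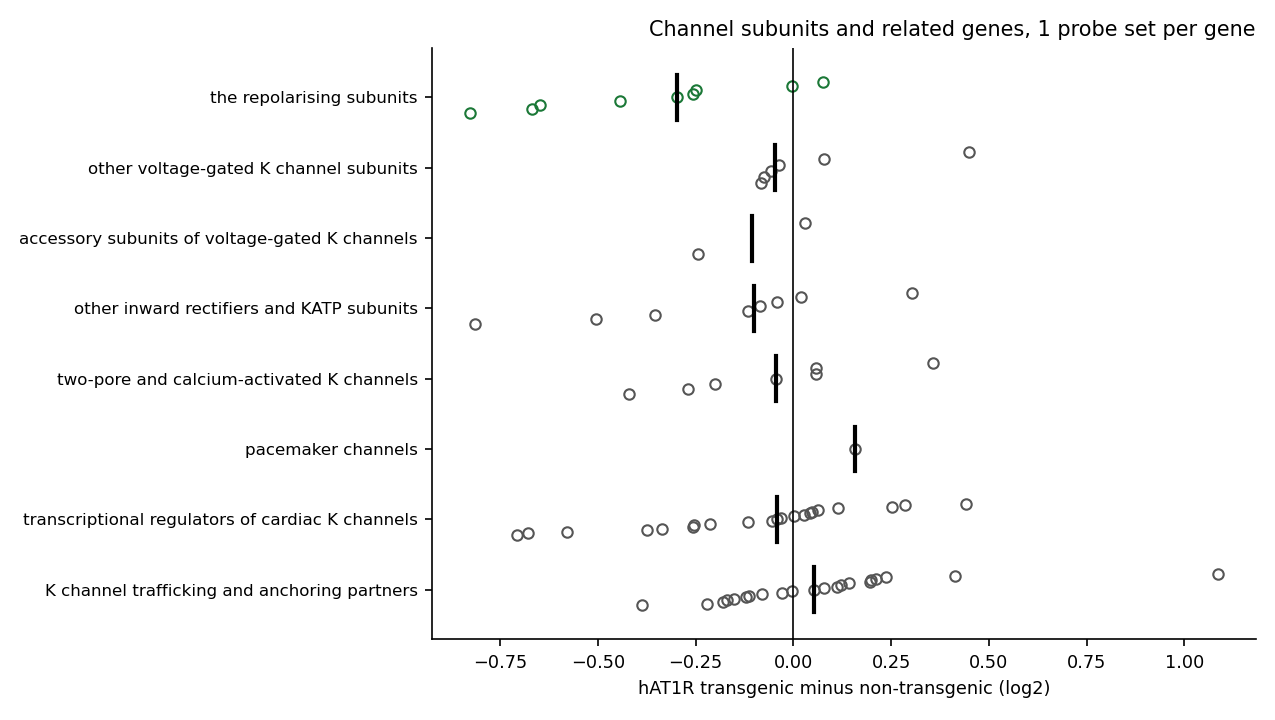
Change per gene, labelled transgenic minus non-transgenic on the log2 scale, for the 9 repolarising subunits and 7 lists of related genes, with 1 probe set per gene. Each circle is a gene kept by the brightness filter and each bar the median of its list. The median of the 9 subunits is -0.30, or -0.28 without Kcnj2, and those of the lists lie between -0.11 and 0.16. The 9 genes and the lists were chosen with earlier results of these data known. Several kept genes of the lists are dim, with means under log2 5.

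The genes most like Kcnd2 were sought among 11007 others by the root-mean-square difference, over the 6 arrays, between values centred on each gene's own mean. The closest was Gpr182, a receptor of endothelial cells, with a difference of 0.097, although its labelled transgenic mean of 3.09, against 3.86 in non-transgenic hearts, lies under the brightness filter. Next were Grk3, a receptor kinase (0.13), the membrane protein gene Tmem50b (0.13), Alas1, the first enzyme of haem synthesis (0.14), and the kinase gene Wnk2 (0.14). Of these 5, Tmem50b fell by 0.84 (limma adjusted p = 0.0266) and Wnk2 fell by 0.84 (limma adjusted p = 0.036), but they did not pass in 8 and 11 of 18 alternatives (adjusted p from 0.0162 to 0.15 and from 0.0216 to 0.149). Among the repolarising subunits Kcnh2 lay closest to Kcnd2, at 0.29, and Kcna5 farthest, at 0.57. With 6 arrays in 2 groups this measure is set largely by the group difference, which Kcnd2 was known to have.

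**Figure D4:**
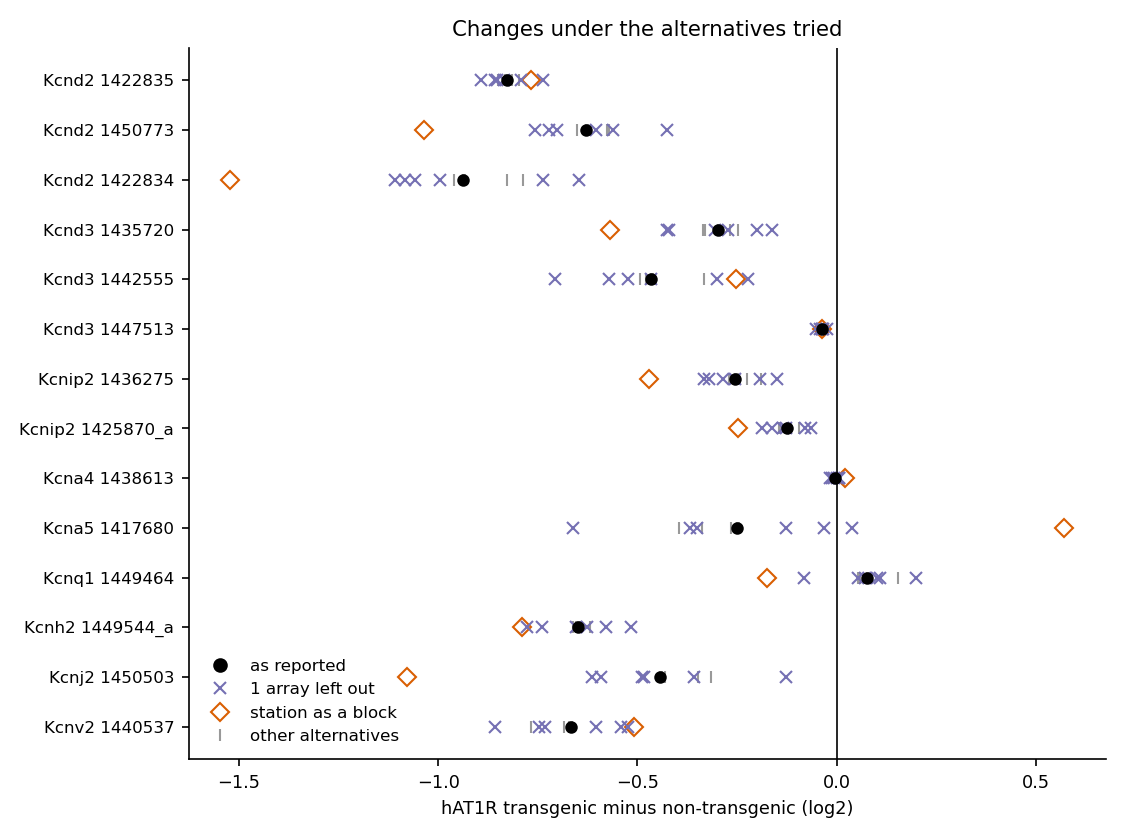
Change of each of the 14 kept probe sets, labelled transgenic minus non-transgenic on the log2 scale, as reported (black) and under each alternative: 1 array left out (crosses), the fluidics station as a block (diamonds) and the others (ticks). All 3 Kcnd2 probe sets and those of Kcnd3, Kcnip2, Kcnh2, Kcnj2 and Kcnv2 stay below 0, and those of Kcna4, Kcna5 and Kcnq1 have values on both sides.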

How the data were processed

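RNA of 6 mouse heart samples was hybridised to Affymetrix Mouse430_2 arrays from 6 ug of total RNA, per the labels' protocols. The deposited log2 values were made by the authors with GCRMA, a background correction and normalization method, per the submitters' processing notes; its version is not given in the sources used here. They were used as deposited, with no pseudocount. The instrument's text records gave station, scan order and the typed chip lot word.

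Of 45101 probe sets, 64 controls were not used. The 2016 platform annotation supplied the gene names, and all 9 channel genes matched the RefSeq table of GRCm38.p6. Groups and replicate numbers came from sample titles. The tests used lmFit and eBayes without a trend (limma 3.58.1, R 4.3.3) over the 22518 probe sets kept, and the fit was tested on simulated data. There 15.9% of changes of size 0.5 were recovered, 80.6% of size 1 and 97.6% of size 2, and 4.63% of calls were false. The spread set in the simulation is not stated here, so these shares need not hold for the deposited values. Not passing therefore says little about changes near 0.5, and larger ones could be missed as well. In the deposited data Tmem50b at -0.84 passed, while Kcnd2 1422834_at at -0.94 did not. A gene with several probe sets was represented by its brightest. Same-numbered arrays did not deviate together (r = -0.083, -0.17 and -0.0067), so the numbers were not taken as pairs.

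The channel genes and lists were chosen with earlier results of these data known. Of each related list the called genes, or else the 2 with the smallest p, were named, and 5 genes closest to Kcnd2. Marker lists were read as sums of linear signal over kept genes. Alternatives were the filter, quantile normalization, median centring, variance trend, robust variance, array weights, replicate number, station or Xist level as a term, 1 or averaged probe sets per gene, and each array left out.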

Additional observations from a re-analysis of the deposited data

How the results depend on the processing

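The count of 49 probe sets called over the whole table became 15 without a filter, 143 above log2 5, 108 with a variance trend, 2 with the station as a block, 0 with the Xist level as a term (3126 at an unadjusted p under 0.05) and 0 with the replicate block (3324 at an unadjusted p under 0.05). With 1 array left out it ran from 0 to 75. The count of channel probe sets called in limma, 0, became 1 above log2 5, 1 with a variance trend and 1 with 1 probe set per gene, each time Kcnd2 at -0.83 (adjusted p = 0.0358, 0.0435 and 0.0458), and stayed 0 with any array left out. The 5 channel probe sets at an unadjusted p under 0.05 ran from 2 to 6 with 1 array left out, the 2 being without labelled transgenic array 3. Without 1 array the Kcnd2 change ran from -0.89 to -0.74. With the replicate block Kcnd2 was at -0.83 (adjusted p = 0.15), and same-numbered arrays did not deviate together. The related lists, with 0 genes called, ran from 0 to 1 with 1 array left out, the 1 being Sntb1. Kcna4 turned to 0.0010 with median centring and to 0.022 under the station block. It ran from -0.016 to 0.0070 with 1 array left out. Blocking on the station, Kcna5 turned to 0.57 and Kcnq1 to -0.18. They ran from -0.66 to 0.038 and from -0.083 to 0.20 with 1 array left out. Kcnab3 ran from -0.017 to 0.059 with 1 array left out. The causes were not tested. The other kept channel probe sets kept their sign in all 15 to 18 alternatives that could be computed for each. With each gene as the mean of its kept probe sets, the pair differences were -0.53 for Kcnd3, -0.61 for Kcnip2 and -0.79 for Kcna4. Kcna4, Kcnj2 and the dim Kcnd3 and Kcnv2 probe sets are limited by low signal over background.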

Other observations

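Smooth muscle and endothelial genes, whose cells carry KATP and inward rectifier channels of their own, were read over whole lists. Smooth muscle and pericyte markers were lower in the labelled transgenic group in 7 of 8 (median -0.16). Their summed linear signals ran from 14445 to 15517 on labelled transgenic arrays, against 14507 to 17584 on non-transgenic arrays. Most of that sum was Rgs5 (13.42 in labelled transgenic and 13.44 in non-transgenic hearts). Endothelial markers were higher in 5 of 7 (median 0.067), with sums from 3638.7 to 4300.3 on labelled transgenic arrays, against 3603.4 to 4386.5 on non-transgenic arrays. Nodal and conduction markers had 3 of 8 kept, none with a group mean above log2 5.08, with sums from 79.5 to 104.5 on labelled transgenic arrays, against 83.8 to 88.2 on non-transgenic arrays. Of 8 skeletal muscle markers 3 were kept, with sums from 21297 to 21886 on labelled transgenic arrays, against 22156 to 25818 on non-transgenic arrays. The smooth muscle, endothelial and conduction sums overlapped between the groups and the skeletal muscle sums did not. Nearly all of the skeletal muscle sum was Ckm, the muscle creatine kinase gene that cardiomyocytes also express. The other 2 kept skeletal genes summed to 21.5 to 21.8 on labelled transgenic arrays, against 21.4 to 27.0 on non-transgenic arrays, with overlap. The fast skeletal genes Myh1, Myh2, Tnnt3, Actn3 and Pvalb were near background in both groups.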
